A study of Arabidopsis thaliana with 12 samples.

Results

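The genes described here were 49 Arabidopsis probe sets that read at least 4-fold brighter in leaves of short-day plants than of long-day plants, in wild type and in the cs26 mutant alike, and that lay close together in both genotypes. They were chosen by the 4 group means of these same arrays. A probe set was taken where short minus long days was 2 or more on the log2 scale in wild type and also in cs26, and where cs26 minus wild type lay between -0.5 and 0.5 in long days and in short days. Plastid genes and ORA47 are set apart by the rule, and ORA47 met the other limits and was left out. Of 22746 probe sets, 49 remained. Because the rule used every group mean, the differences between groups below are descriptions of the chosen genes and carry no test.

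Day length sets how long a leaf photosynthesises and how long it lives on stored starch. Arabidopsis plants in short days grow more slowly and flower later. Light receptors such as the phytochromes, the circadian clock and sugar signals all carry information on day length to leaf genes. CS26 (AT3G03630) encodes an S-sulfocysteine synthase of the chloroplast, a sulfur enzyme related to those that make cysteine. Genes of this set are those whose level followed the photoperiod groups while differing little between mutant and wild type.

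Leaf RNA came from 4 groups of 3 arrays each, which the submitters call biological replicates. Wild type was the accession Col-0, and the mutant was cs26, a single line (SALK_034133), with both genotypes grown on soil with Hoagland medium. Long-day plants had 16 h of light and 8 h of dark and were 3 weeks old, and short-day plants had 8 h of light and 16 h of dark and were 5 weeks old, with 20 °C by day and 18 °C by night. Photoperiod and age therefore cannot be told apart, and the hour of harvest is not given in the sources used here. In whole leaves, a change in the share of a cell type and a change in RNA per cell cannot be told apart either. No probe set names CS26 alone, so the mutant label was not checked by its level. Of the arrays, replicate 2 of wild type in long days read 9.64 for the 25S ribosomal RNA control against 4.53 to 5.12 elsewhere, and replicate 2 of cs26 in short days had the widest deviations from its group mean (SD 0.208 over all probe sets, against 0.104 to 0.155 on the others). Applied without the first of these arrays the rule took 53 probe sets, 48 of them members, and without the second 56, again 48 of them members.

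The leaf label was checked by marker genes. A gene counted as measured here is one that a probe set names alone, and others may lie among the unnamed probe sets. Of the mesophyll markers 2 were measured, both at the bright end of a scale that ended at 14.27. RCA, the activase of Rubisco, averaged 13.77 in wild type in long days and 13.34 in short days, and 13.83 and 13.74 in cs26. LHCB4.2, a light-harvesting protein gene of photosystem II, averaged 12 and 13.25 in wild type and 10.68 and 13.18 in cs26, so that it was higher in short days by 1.25 in wild type and 2.50 in cs26. CLV3, a marker of the shoot apex, averaged 4.23 to 4.28 in the 4 groups, below the array medians of 5.42 to 5.51. Of 2 root markers, EXPA7, a root hair gene, averaged 4.54 to 4.91 in the groups. The other, BGLU23, averaged 6.6 in cs26 in long days, above those medians, and 3.91 to 3.95 in the other groups. Of 4 guard cell and stomatal lineage genes measured, 1 was higher and 2 were lower in short days in wild type. In cs26 0 were higher and 3 lower. The limma fit called 21.8% of all probe sets higher and 23% lower in wild type, and 21.5% and 21.8% in cs26. GC1, expressed in guard cells, differed by -0.45 in wild type and -1.52 in cs26. The other stomatal genes were FAMA (-0.81 and -0.70), SPCH (-0.07 and -0.41) and MUTE (0.26 and -0.12). The trichome repressor gene TRY, the only 1 of 5 trichome markers measured, differed by 0.79 and 2.24. SWEET11, a phloem marker, differed by -1.09 and -0.81, and AUR1, a marker of dividing cells, by 0.24 and -0.29. The part of leaf cell types in the members' differences was not tested.

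Of the 49 members, 15 probe sets name 1 gene in the annotation (14 genes, since AT5G54130 has 2 probe sets), 3 name several and 31 are unnamed. The share naming 1 gene was 30.6% among members and 59.4% among all probe sets. It was 44.7% of the 47 probe sets that were high in long days under the mirrored rule, and 47.6% of the 84 that were high in short days in both genotypes but lay outside the bound on cs26. Whether any unnamed member belongs to the plastid could not be checked, and 0 of the 134 probe sets high in short days in both genotypes were annotated as plastid.

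**Figure D1:**
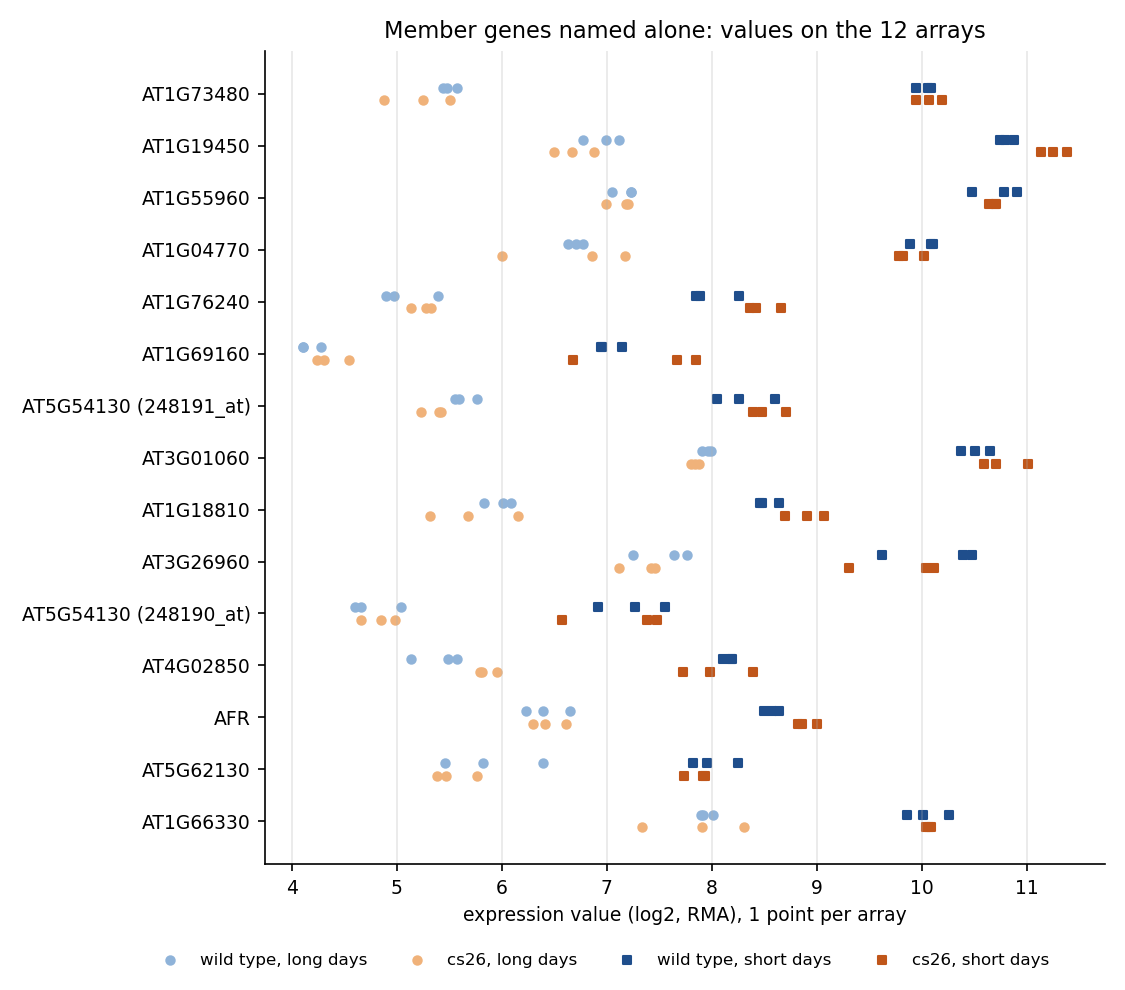
Log2 expression values of the 15 member probe sets that name 1 gene, with 1 point for each of the 12 arrays. Circles are long days and squares short days, and blue is wild type and orange cs26. In every row all squares lie to the right of all circles, with the narrowest gap, 1.35, at AT5G62130 and the widest, 4.38, at AT1G73480.

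AFR and AT1G18810 are described first, for what their families are known to do with light. AFR (AT2G24540) encodes an F-box protein with kelch repeats that acts in phytochrome A signalling of far-red light. It read 6.65, 6.23 and 6.39 in wild type and 6.30, 6.61 and 6.41 in cs26 in long days, and 8.57, 8.50 and 8.64 in wild type and 9.0, 8.86 and 8.82 in cs26 in short days. The genotypes overlapped in long days, and in short days all cs26 arrays lay above those of wild type. Short minus long days was 2.15 ± 0.11 (log2, SE, n = 3 arrays per group; 4.43-fold) in wild type and 2.45 (5.48-fold) in cs26.

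AT1G18810 belongs to the phytochrome kinase substrate family, whose members act in phototropism and leaf positioning. Its values were 6.09, 5.83 and 6.01 in wild type and 6.15, 5.32 and 5.68 in cs26 in long days, and 8.46, 8.64 and 8.48 against 8.91, 8.70 and 9.07 in short days. The low long-day value of 5.32 came from replicate 2. The photoperiod difference was 2.55 ± 0.17 in wild type (5.86-fold) and 3.18 in cs26 (9.04-fold), with a difference between the genotypes of 0.63.

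AT1G19450 encodes a sugar transporter of the ERD6-like group, a branch of the major facilitator superfamily with members at the vacuole membrane. It read 6.77, 6.99 and 7.12 in wild type and 6.88, 6.50 and 6.67 in cs26 in long days. In short days it read 10.88, 10.75 and 10.79 in wild type and 11.14, 11.25 and 11.38 in cs26. The genotypes overlapped in long days and separated in short days, where cs26 was higher by 0.45 (95% interval 0.20 to 0.70). Short days were 14.4-fold higher in wild type (3.85 ± 0.12) and 23.8-fold in cs26 (4.57). SFP1, a relative in the same transporter group and no member, was also higher in short days, by 1.49 ± 0.113 in wild type (limma adjusted p = 3.35e-07) and 1.32 in cs26 (adjusted p = 9.06e-07). It was named after its values were seen. Among the starch and sugar transport genes listed, SWEET11 differed by -1.09 in wild type and -0.81 in cs26, and SWEET13 by -0.75 and 3.15.

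AT1G73480 encodes an alpha/beta hydrolase like the lipases that split monoacylglycerols, and it had the largest difference among members naming 1 gene. In long days it read 5.44, 5.57 and 5.48 in wild type and 4.88, 5.51 and 5.25 in cs26, and in short days 10.06, 9.95 and 10.09 against 10.19, 9.95 and 10.07. Its level went from close to the array median to the bright end of the arrays, a difference of 4.54 ± 0.13 in wild type (23.2-fold) and 4.86 in cs26 (29.0-fold).

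AT1G55960 encodes a protein with a START domain, a fold that binds lipids. Its long-day values were 7.23, 7.05 and 7.23 in wild type and 7.18, 6.99 and 7.2 in cs26, and its short-day values 10.78, 10.91 and 10.48 against 10.71, 10.64 and 10.70. The genotypes overlapped in both photoperiods. Short minus long days was 3.55 ± 0.11 in wild type (11.7-fold) and 3.56 in cs26 (11.8-fold), so the effects lay 0.01 apart, with cs26 minus wild type at -0.05 in long days and -0.04 in short days.

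AT1G04770 encodes a tetratricopeptide protein related to the proteins induced by sulfur deficiency. It read 6.63, 6.71 and 6.77 in wild type and 7.17, 6.0 and 6.86 in cs26 in long days, and 10.09, 10.11 and 9.89 against 10.02, 9.82 and 9.78 in short days. The long-day spread of cs26 (SD 0.61) exceeded that of the other groups (0.07 to 0.13). Short minus long days was 3.33 ± 0.22 in wild type and 3.20 in cs26 (9.17-fold). Without replicate 2 of cs26 in long days, cs26 minus wild type in long days was 0.31 in place of -0.03, and the effect in cs26 minus that in wild type -0.47.

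AT3G26960 belongs to the pollen Ole e allergen and extensin family. It read 7.25, 7.64 and 7.76 in wild type and 7.12, 7.42 and 7.46 in cs26 in long days, and 10.48, 10.39 and 9.62 against 10.12, 9.31 and 10.04 in short days. A low array stood out in each short-day group, and short minus long days was 2.61 ± 0.25 in wild type (6.12-fold) and 2.49 in cs26 (5.62-fold).

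AT5G62130 encodes a protein like Per1, which in yeast remodels the lipid of GPI anchors. Long-day values were 5.46, 6.39 and 5.82 in wild type and 5.38, 5.76 and 5.47 in cs26, and short-day values 7.95, 7.82 and 8.25 against 7.94, 7.74 and 7.92. Genotypes overlapped in both photoperiods, and short minus long days was 2.12 ± 0.20 (4.34-fold) in wild type and 2.33 (5.03-fold) in cs26.

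AT1G69160 belongs to the BIG GRAIN1-like family, which in rice acts in auxin transport and grain size. It was dim in long days, at 4.11, 4.28 and 4.11 in wild type and 4.54, 4.24 and 4.31 in cs26. Short-day values were 6.94, 7.14 and 6.95 in wild type and 7.85, 6.68 and 7.67 in cs26, where replicate 2 lay below all wild-type arrays and the other 2 above them. The photoperiod difference was 2.84 ± 0.23 in wild type (7.18-fold) and 3.04 in cs26 (8.21-fold). This shared SE includes the wide short-day spread of cs26 (SD 0.63, against 0.10 to 0.16 in the other groups). Without that replicate, cs26 minus wild type in short days was 0.75 in place of 0.39, outside the bound of the rule, and the effect in cs26 minus that in wild type was 0.55 in place of 0.19.

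AT5G54130 encodes a calcium-binding member of the endonuclease, exonuclease and phosphatase family. Both of its probe sets were members, and it was the only member gene with more than 1 probe set. The brighter, 248191_at, read 5.55, 5.59 and 5.76 in wild type and 5.40, 5.42 and 5.23 in cs26 in long days, and 8.26, 8.60 and 8.05 against 8.71, 8.39 and 8.48 in short days. The other, 248190_at, read 4.60, 4.66 and 5.04 against 4.66, 4.98 and 4.85 in long days, and 7.27, 7.55 and 6.92 against 7.48, 6.57 and 7.38 in short days. In wild type their differences were 2.67 ± 0.13 and 2.48 ± 0.23, and in cs26 3.18 and 2.31, so the probe sets were closer to each other in wild type than in cs26.

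AT4G02850, of the family of phenazine biosynthesis proteins PhzC and PhzF, had the widest long-day gap between genotypes among members naming 1 gene. It read 5.49, 5.13 and 5.57 in wild type and 5.81, 5.79 and 5.95 in cs26 in long days, without overlap, and 8.11, 8.19 and 8.18 against 8.39, 7.73 and 7.98 in short days. cs26 minus wild type was 0.45 in long days (95% interval 0.12 to 0.78) and -0.13 in short days. Its photoperiod difference was 2.76 ± 0.15 (6.79-fold) in wild type and 2.18 (4.54-fold) in cs26.

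AT1G66330 belongs to a senescence-associated family. It read 7.90, 8.01 and 7.92 in wild type and 8.31, 7.34 and 7.91 in cs26 in long days, and 10.01, 9.86 and 10.26 against 10.04, 10.07 and 10.09 in short days. Short-day arrays of cs26 were the tightest (SD 0.03) and its long-day arrays the widest (SD 0.49), and the photoperiod difference was 2.1 ± 0.19 in wild type and 2.21 in cs26.

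AT1G76240 has a domain of unknown function. Its long-day values were 4.97, 5.39 and 4.90 in wild type and 5.28, 5.13 and 5.33 in cs26, and its short-day values 7.89, 7.85 and 8.26 against 8.42, 8.66 and 8.36. cs26 lay above wild type on all short-day arrays, by 0.48, just inside the bound. Short minus long days was 2.91 ± 0.14 (7.53-fold) in wild type and 3.23 (9.40-fold) in cs26.

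AT3G01060 had the tightest long-day values among members naming 1 gene, 7.99, 7.96 and 7.91 in wild type and 7.80, 7.88 and 7.84 in cs26, and read 10.51, 10.37 and 10.65 against 10.59, 11.01 and 10.71 in short days. In long days the genotypes did not overlap although they were 0.11 apart, with wild type higher, and in short days they overlapped. Short minus long days was 2.56 ± 0.11 (5.88-fold) in wild type and 2.93 (7.62-fold) in cs26.

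The largest photoperiod differences among the 49 belonged to unnamed probe sets. 256057_at read 4.45, 4.53 and 4.89 in wild type and 4.56, 4.49 and 4.87 in cs26 in long days, and 9.90, 9.92 and 9.92 against 10.31, 10.56 and 10.35 in short days. That is 39.1-fold in wild type (5.29 ± 0.13) and 54.4-fold in cs26 (5.77). 256266_at followed, at 4.60, 4.66 and 4.70 against 4.75, 4.50 and 4.56 in long days and 10.25, 10.31 and 10.18 against 9.95, 9.58 and 10.06 in short days, which is 48.3-fold in wild type and 38.3-fold in cs26. In short days the genotypes separated for both, with cs26 higher for 256057_at and lower for 256266_at.

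Across all 49 members, short minus long days ran from 2.0 to 5.59 in wild type with a median of 2.91, and from 2.03 to 5.77 in cs26 with a median of 2.99, against a median of -0.01 in each genotype over all probe sets. By the smaller of both differences, 30 members lay from 2 to 3, 14 from 3 to 4, 3 from 4 to 5 and 2 above 5. The limma fit called all 49 higher in short days in wild type, where 21.8% of all probe sets were called higher and 23% lower, and all 49 in cs26, where 21.5% were called higher and 21.8% lower. These calls follow from the rule and are no finding. Every short-day array lay above every long-day array for all 49, as it did for 11.8% of all probe sets, and the gap ran from 0.87 (261576_at) to 5.01 (256057_at).

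**Figure D2:**
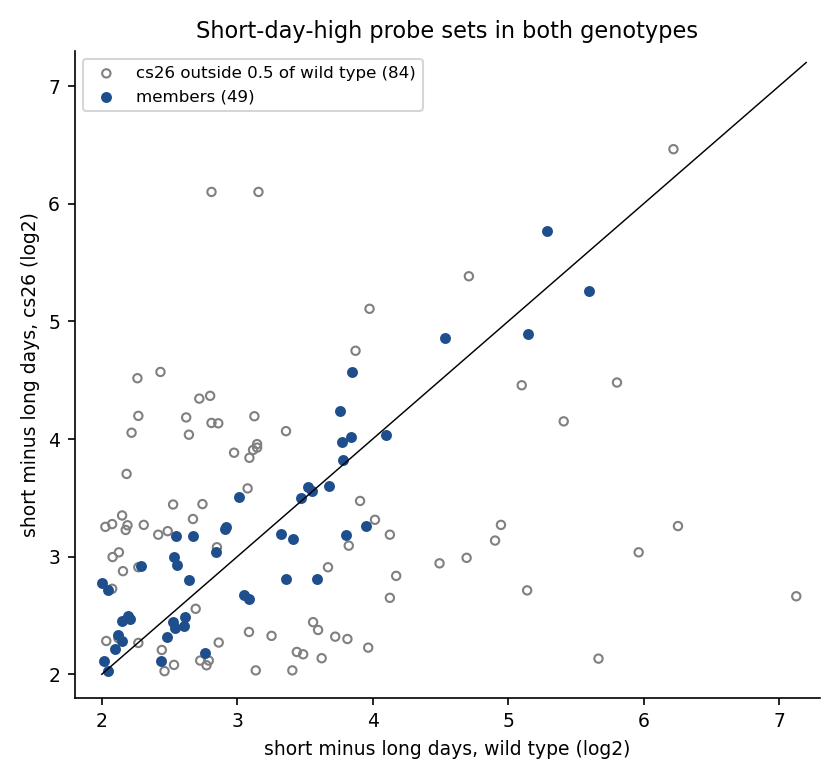
Short minus long days in wild type (x axis) and in cs26 (y axis), both log2 differences of group means, for the 49 members (filled) and the 84 other probe sets high in short days in both genotypes (open), with the line of equal effects. Members stay near the line, as the bound on cs26 requires, and range from 2.0 to 5.59 in wild type.

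The effect was the larger in cs26 for 29 members, among them 11 of the 15 that name 1 gene, and the larger in wild type for 20. Short minus long days was the higher in cs26 for 11710 of all 22746 probe sets, and no tendency of the members was tested. For 21 members the effects lay within 0.25 of each other. The difference of the effects ran from -0.78 to 0.77 with a median of 0.10. At its ends stood the unnamed 260856_at (3.59 in wild type and 2.81 in cs26) and 251519_at (2.0 and 2.77).

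Within the bound, cs26 minus wild type ran from -0.48 to 0.45 in long days with a median of -0.04, and from -0.49 to 0.49 in short days with a median of 0.04. In long days 19 of 49 members were higher in cs26, beside 10754 of all 22746 probe sets. In short days 28 members were, beside 11299 of all probe sets, and no tendency of the members was tested. The limma fit called 4 members in long days (against 24.6% of all probe sets), 5 in short days (16.7%) and 6 in the difference of the photoperiod effects (27.6%), in all 11 members by at least 1 of these, and nothing is read from these counts since the rule bounds each difference. The long-day count was 1 without replicate 2 of wild type or replicate 3 of cs26 in long days, and 2 without replicate 1 of wild type or replicate 3 of cs26 in short days. The short-day count was 1 without replicate 2 of wild type, 2 without replicate 1 of wild type and 3 without replicate 3 of cs26, all in short days, and the count for the difference was 11 without replicate 1 of cs26 in short days.

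**Figure D3:**
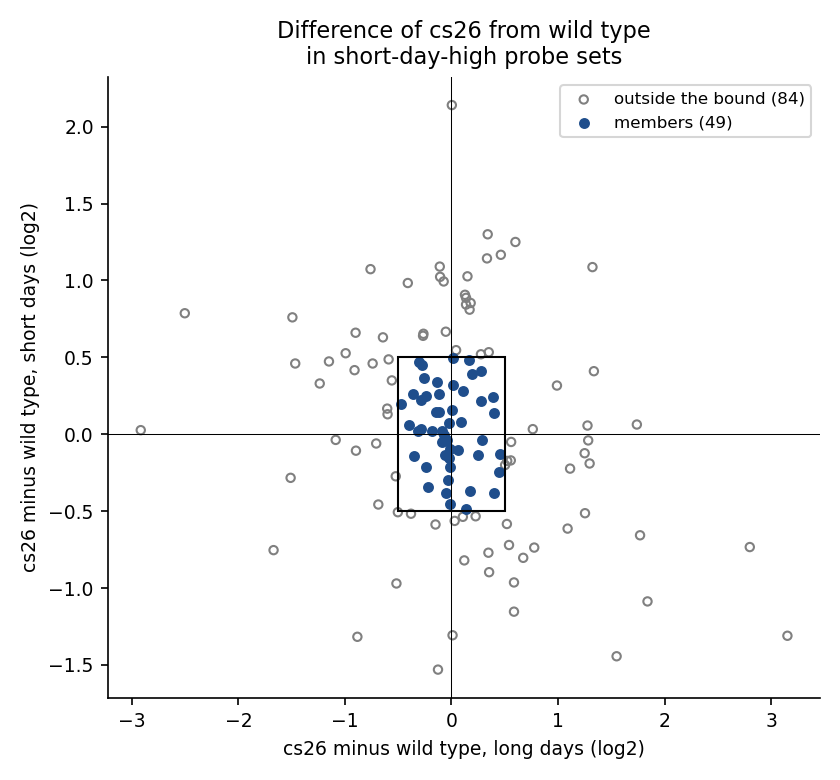
cs26 minus wild type in long days (x axis) and in short days (y axis), log2, for the 49 members (filled) and the 84 probe sets high in short days in both genotypes but outside the bound (open), with the bound drawn as a square. The members fill the square, and the other probe sets lie outside it on all sides. In short days 28 members lay above 0, beside 11299 of all 22746 probe sets.

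A small estimated difference is not the same as a small difference. The intervals of the fit, with 3 arrays per group, take no account of the rule's choice of members by these estimates. The 95% interval of cs26 minus wild type had a median half-width of 0.298. It lay wholly within ±0.5 for 24 members in long days, for 22 in short days and for 15 in both, and within ±1 for all 49 in both. It held 0 for 38 members in long days, 34 in short days and 28 in both. The rule bounded these same estimates, so the interval counts describe the chosen members and nothing is read from them. The arrays of the genotypes did not overlap for 11 members in long days (38.2% of all probe sets) and for 15 in short days (29.8%), again within the limits the rule set.

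**Figure D4:**
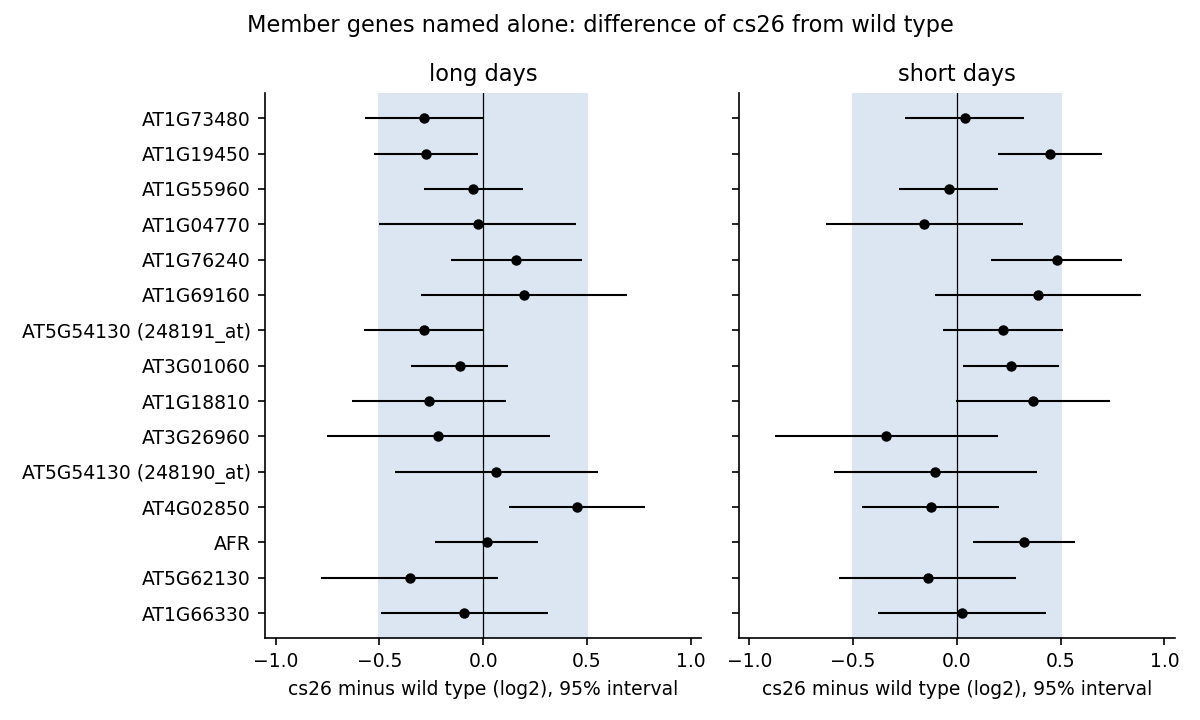
cs26 minus wild type (log2) for the 15 member probe sets naming 1 gene, in long days (left) and short days (right). Points are estimates and bars 95% intervals of the fit, n = 3 arrays per group, and the shaded band is the bound of ±0.5. Every point lies in the band, and several bars reach beyond it, among them AT4G02850 in long days (to 0.78) and AT1G19450 in short days (to 0.70).

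Values at the edge of the rule were as follows. For short minus long days in wild type, 251519_at (2.0), 261576_at (2.01) and 248248_at (2.04) lay just inside and AT5G50100 (1.98), AT5G64850 (1.97) and 259927_at (1.97) just outside, and in cs26 the nearest were 248248_at (2.03) inside and AT3G27050 (1.96) outside. For the size of cs26 minus wild type in long days, 265962_at (0.48), AT4G02850 and 266832_at (both 0.45) lay inside and 259185_at (0.50), AT1G66100 (0.52) and 266656_at (0.52) outside. In short days 256057_at (0.49), 263595_at (0.49) and AT1G76240 (0.48) lay inside and AT2G42760 (0.52), 262113_at (0.52) and AT3G07350 (0.53) outside.

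The rule set no limit on brightness itself, but a short-day mean at least 2 above the long-day mean can be met only by probe sets well above the floor of the scale in short days. The values are a description. In wild type their means ran from 3.99 to 9.01 in long days with a median of 5.88, and from 6.18 to 11.62 in short days with a median of 8.93. In long days both group means of 18 members lay below the lowest array median of 5.42, and in short days none did, while 46 had both short-day means above 7.43, the upper quartile of all probe sets. AT1G69160, AT1G76240 and 248190_at of AT5G54130 were the dim members that name 1 gene.

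The rule set no limit on the spread between replicates, although that spread enters the group means it used. The residual SD of members had a median of 0.185 (0.0607 to 0.41), against 0.139 over all probe sets, 0.164 for the 47 long-day-high probe sets under the mirrored rule and 0.195 for the 84 short-day-high probe sets outside the bound. Replicate 2 of cs26 in short days read low for 30 of 49 members, with a mean deviation of -0.12, and it held the low values of AT1G69160, AT3G26960, AT4G02850 and 248190_at given above. Replicate 2 of cs26 in long days had the widest deviations (SD over members 0.227), with AT1G04770, AT1G18810 and AT1G66330 at its low end.

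**Figure D5:**
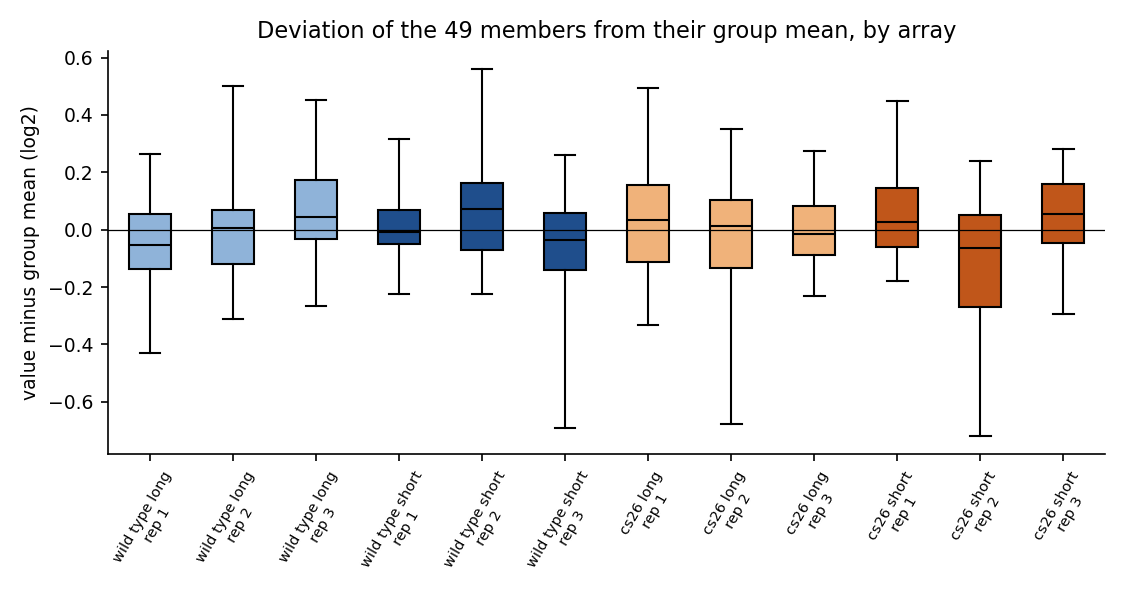
Deviation of the 49 members from their own group mean (log2) on each of the 12 arrays. Boxes span the quartiles with the median as a line, and whiskers reach the lowest and the highest member. Replicate 2 of cs26 in short days sits lowest, with a mean of -0.12, and the mean deviations of the other arrays lie between -0.06 and 0.06.

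On the chromosomes, 8 of the 14 member genes (57.1%) lay on chromosome 1, which holds 25.8% of the measured genes, with 1 gene on chromosome 2, 2 on 3, 1 on 4 and 2 on 5. With only 14 genes placed, the difference between these percentages was not tested. None of these 14 genes was next to another, and the 31 unnamed members and the 3 naming several genes were given no position. Of the 13 neighbouring genes with a probe set of their own, 5 were higher and 2 lower in short days in wild type, and 8 higher and 1 lower in cs26. Over all probe sets 21.8% were called higher and 23% lower in wild type, and 21.5% and 21.8% in cs26, and with 13 genes no difference from these shares was tested. AT2G24550, the gene after AFR, was higher by 5.08 in wild type (limma adjusted p = 3.04e-12) and by 1.83 in cs26 (adjusted p = 1.10e-08), and it is named because its values were seen.

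The gene lists, 13 of pathways and responses and 7 of cell type markers, held 368 genes in all. Of these, 60 had a probe set naming them alone and 0 were members. Of all 13513 probe sets naming 1 gene only 15 were members, so nothing is read from the 0. The 31 unnamed members and the 3 naming several genes could not be matched to the lists. For the list counts here and below, the shares called over all probe sets were 21.8% higher and 23% lower in wild type. In cs26 they were 21.5% and 21.8%. Of 33 listed circadian clock genes 4 had a probe set naming them alone, and the hour of the day is not given. Among these 4 genes, 3 were lower in short days in wild type, with a list median of -2.94. In cs26 3 were lower and 1 higher, with a median of -1.80. COR27, an evening-phased clock regulator, fell in short days by 4.8 ± 0.103 in wild type (limma adjusted p = 4.33e-12) and by 4.89 in cs26 (adjusted p = 4.70e-12), with cs26 minus wild type at 0.06 and -0.03. GI, which links the clock to flowering, fell by 2.61 in wild type and by 1.04 in cs26, and the difference between these was 1.57 ± 0.319 (adjusted p = 0.00269).

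Of 4 auxin, shade and light signalling genes, 2 were higher in short days in wild type, and 2 higher and 2 lower in cs26. HYH, a transcription factor of light signalling, rose by 2.49 in wild type and by 1.01 in cs26, and lay 1.64 higher in cs26 than in wild type in long days (adjusted p = 5.36e-06). IAA29, an auxin response repressor, rose by 0.70 (adjusted p = 0.002) and 0.67 (adjusted p = 0.00261). Of 8 starch and sugar transport genes, 2 were higher and 5 lower in wild type, with a median of -0.92, and 3 higher and 4 lower in cs26, with a median of -0.14.

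The 4 measured rapid stress and touch genes were all higher in short days in wild type, with a median of 3.36, and in cs26 2 were higher and 1 lower, with a median of 0.30. STZ, a zinc finger repressor, rose by 4.47 in wild type and by 0.61 in cs26, and WRKY53, a regulator of senescence and defence, rose by 3.00 in wild type and fell by 1.5 in cs26. In long days both lay higher in cs26 than in wild type, STZ by 3.06 (adjusted p = 7.73e-10) and WRKY53 by 2.48 (adjusted p = 1.61e-08). Of 3 flowering genes 2 were higher in both genotypes, of 3 genes induced by dark and sugar starvation 2 were lower in wild type and 1 was higher in cs26, and of 2 glucosinolate genes 1 was higher in wild type and 2 in cs26.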

How the data were processed

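The deposited values are log2 expression values of Affymetrix ATH1 probe sets on 12 arrays. Per the submitters' processing notes they were made with RMA and the affy package, in versions not given in the sources used here. RMA sets array distributions alike, which removes a shift shared by most transcripts, and it compresses differences of dim probe sets. The number of arrays limits the precision. Scanner files were not used.

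Of 22810 probe sets on the array, the 64 Affymetrix controls were left out, and 13513 of the other 22746 name 1 gene, 503 several and 8730 none. Symbols were updated from a gene table of the assembly TAIR10.1 (13436 of the 13513 matched), used also for chromosomes and neighbours. Groups came from the genotype and photoperiod labels. All 12 arrays entered 1 model with a mean per group (limma 3.58.1 in R 4.3.3, lmFit and eBayes), tested on simulated data. Benjamini-Hochberg adjustment ran over all 22746, and a call is an adjusted p under 0.05. Errors are the model's SE.

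The members and gene lists were chosen with earlier results of these data known. Named genes are the members naming 1 gene, up to 24 by the smaller photoperiod difference, and the probe sets at each limit of the rule. Other genes and unnamed probe sets were named after their values were seen. Alternatives were other limits of the rule, group medians, normalisation, priors, weights, a brightness filter, a replicate block and leaving out each array. No sequences are shown.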

Additional observations from a re-analysis of the deposited data

Results flagged for a closer look

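The photoperiod effect on AT1G19450, the ERD6-like sugar transporter gene, was larger in cs26 than in wild type by 0.73 ± 0.163 (log2, SE, n = 3 arrays per group), and by 0.64 to 0.83 over the alternatives tried. It is listed here because the genotypes' effects lay apart in the fit, but the value comes from the same 4 group means that chose the gene, so it is a description and carries no test. The fit called this difference for 6 members, of which AT1G19450 was the only 1 naming 1 gene. The unnamed 260856_at (-0.78) and 251519_at (0.77) had larger differences. For AT1G19450 all 3 cs26 arrays lay above those of wild type in short days, and the genotypes overlapped in long days. The rule allows such a difference only up to 1. Over the same alternatives the value ran from 0.43 to 0.84 for AT1G18810 and from -0.76 to -0.43 for AT4G02850.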

How the results depend on the processing

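The rule took 49 probe sets, and its limits set that number. It took 18 with cs26 held within 0.25 of wild type, 96 within 1, 99 with a photoperiod difference of 1.5 and 19 with 3. Without each array in turn it took 45 to 56, sharing at least 43 with the 49, and 31 members met it in all 12 such settings (8 of the 15 naming 1 gene). With another quantile normalisation it took 49 (48 shared), and with group medians 58 (44 shared). All 49 were called in short against long days in each genotype under every alternative that tested them, including each array left out (49 to 49). Among probe sets brighter than the median all 48 tested were called. Counts of members called between genotypes moved. In long days the 4 became 2 with a trended robust prior, 10 with array weights, 1 at an adjusted p under 0.01, and 1 to 6 without each array. In short days the 5 became 1 at an adjusted p under 0.01 and 1 to 6 without each array. For the difference of the photoperiod effects the 6 became 11 among brighter probe sets, 3 at an adjusted p under 0.01 and 6 to 11 without each array. With the replicate number as a block, 49 and 49 members were called for photoperiod, 2 for cs26 in long days, 3 in short days and 6 for the difference. Deviations of same-numbered arrays had 18 correlations from -0.31 to 0.16, 2 of them over 0.1. With 3 arrays per group these cannot decide whether the replicate numbers mark shared batches. The causes were not tested.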
